A study of Mus musculus with 6 samples.

Results

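The genes described are 10 iron handling genes of the mouse liver, among them both hepcidin genes. They were taken by name, through the single gene symbol that the array platform's annotation gives a probe set, and all 10 were found, each with 1 probe set, among 19938 genes tested. Liver RNA came from C57BL/6 mice, an inbred laboratory strain, fed without restriction for 2 days on a regular diet (RD, 3 biological replicates) or a high fat diet (HFD, 3 biological replicates), with 1 array for each. No transgene, deletion or drug is named in the labels for either diet, which state no age or sex. All sample titles share the letters NI, which the labels leave unexplained, so any further condition common to both diets is not known here. The comparison asks how expression in the liver differs after 2 days of HFD.

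The liver holds much of the body's iron and makes the hormone that regulates iron in plasma. Iron circulates bound to transferrin (Trf) and enters cells through transferrin receptor 1 (Tfrc), whose mRNA is stabilised by iron regulatory proteins when cell iron is low. Slc11a2 carries iron out of endosomes into the cytosol, ferritin (heavy chain Fth1) stores it, and ferroportin (Slc40a1) is the only known cellular iron exporter. Hepcidin, the product of Hamp in hepatocytes, binds ferroportin and has it degraded. Hamp is driven by BMP6 from sinusoidal endothelial cells through SMAD proteins, with Hfe and Tfr2 as sensors of transferrin iron, and by interleukin 6 through STAT3. Mice carry a neighbouring duplicate, Hamp2, which is not known to regulate plasma iron as Hamp does.

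The upstream sequences of the duplicated hepcidin genes are shown first. Hamp2 was called lower in HFD and Hamp was not called, and whether their upstream sequences bear on this was not tested. Below are 150 bases upstream of each annotated start, from RefSeq, build GRCm38.p6, minus strand of chromosome 7, written 5′ to 3′ and aligned without gaps (Hamp chr7:30944033-30944182, bases -153 to -4 relative to its start; Hamp2 chr7:30924182-30924331, bases -150 to -1). Capitals mark the place of the BMP response element (GGCGCC) and of the STAT site (TTCNNNGAA, found as TTCTTGGAA) in Hamp, and the same places in Hamp2.
Hamp: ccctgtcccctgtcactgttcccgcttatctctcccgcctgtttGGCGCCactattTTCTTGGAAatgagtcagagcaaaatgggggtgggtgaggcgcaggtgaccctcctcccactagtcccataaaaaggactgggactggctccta
Hamp2: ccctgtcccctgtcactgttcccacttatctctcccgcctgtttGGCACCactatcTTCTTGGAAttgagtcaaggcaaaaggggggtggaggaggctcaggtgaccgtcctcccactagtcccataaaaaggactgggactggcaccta
The stretches were identical at 138 of 150 positions. One of the 12 differences, G48A (Hamp base first, position counted from 1 at the 5′ end of the stretch), lay in the BMP response element, and 0 lay in the STAT site. On either strand, GGCGCC occurred in 9.59% and TTCNNNGAA in 7.02% of all 32851 RefSeq windows of 250 bases upstream of a start. These matches describe the letters of the windows, and binding was not measured. Of the 10 genes, 7 have an entry among these windows. Beside Hamp, GGCGCC was found only in 1 of the windows of Tfrc, and TTCNNNGAA was found in Hamp and Hamp2 alone of the 7.

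After 2 days of HFD, the genes for the iron importer Tfrc and the iron exporter Slc40a1 were both higher, Hamp2 was lower, and Hamp did not differ by a called amount. Of the 10 genes 2 rose, against 3.11% of all genes tested, 1 fell, against 2.24%, and 7 did not pass (limma, Benjamini-Hochberg adjusted p under 0.05 over all genes). The median log2 difference of the 10 genes was 0.08, beside -0.0029 over all genes tested. The values of the diets did not overlap for 8 of the 10, against 25.7% of all genes. These genes and the lists below were chosen with earlier results of these data known, so counts beside such shares are no test. The 3 calls were lost together in a linear model without limma's moderation of the variance (adjusted p = 0.054 for Slc40a1, 0.14 for Tfrc and 0.15 for Hamp2), in which 41 genes in all were higher and 58 lower.

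**Figure D1:**
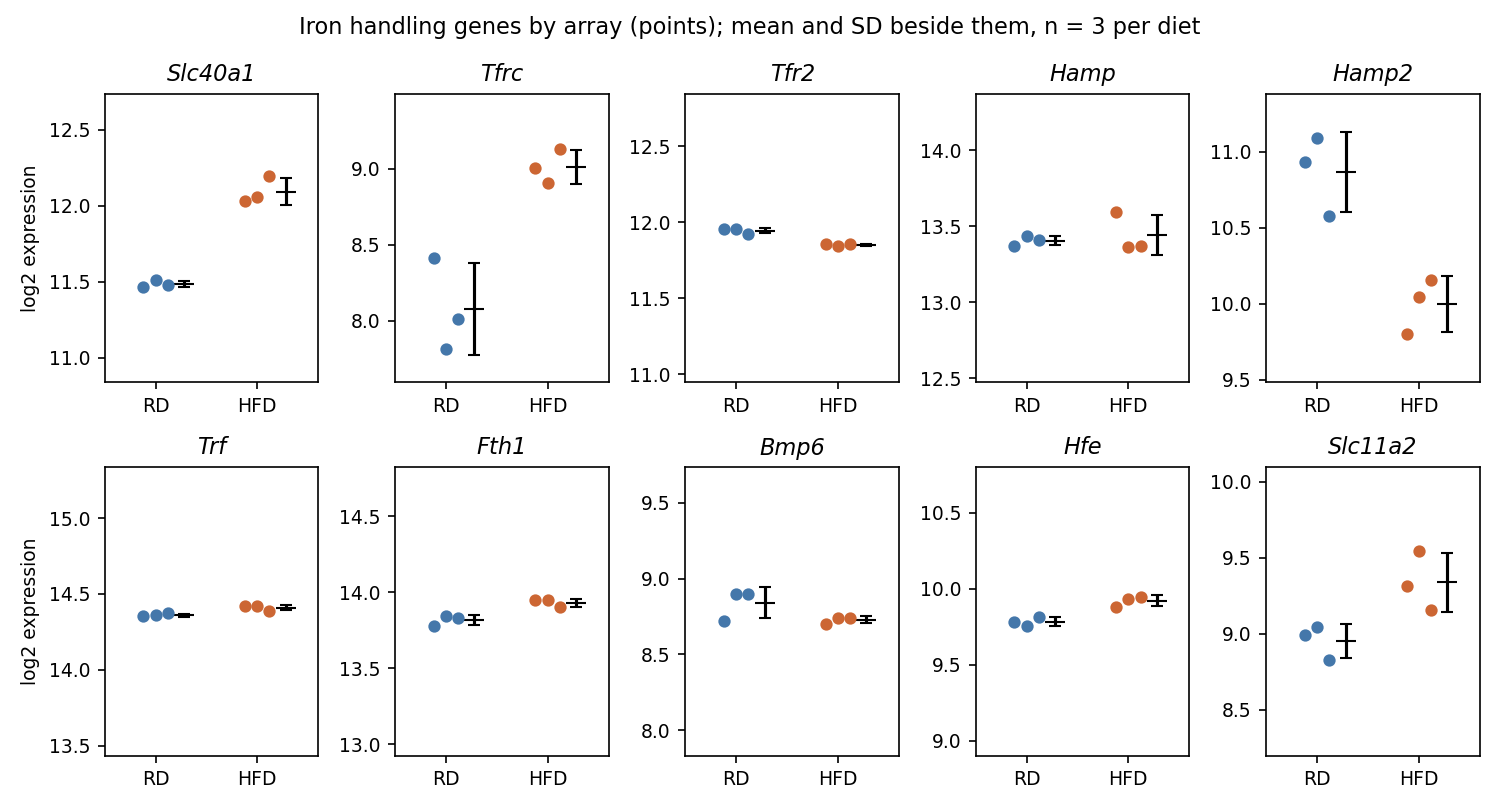
Log2 expression (vertical axis; every panel spans the same range) of the 10 iron handling genes on the 3 RD and 3 HFD arrays; points are arrays, and the black bars give the mean and SD. Slc40a1 and Tfrc lie higher and Hamp2 lower in HFD without overlap. The other 7 genes differ by at most 0.39, and of these only Hamp and Bmp6 overlap between diets.

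Slc40a1 (probe set 10354374) had log2 expression of 11.47, 11.51 and 11.48 on the RD arrays and 12.03, 12.06 and 12.20 on the HFD arrays. All 3 HFD values lay above all 3 RD values, with 0.52 between the nearest pair. The difference was 0.61 ± 0.07 (SE), a 1.53-fold rise with a 95% confidence interval from 1.37-fold to 1.70-fold (limma adjusted p = 0.0027). The RD arrays lay close together (SD 0.022, n = 3), and the call held whichever array was left out (log2 difference 0.56 to 0.64).

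Ferroportin is made by hepatocytes and in quantity by Kupffer cells, the resident macrophages of the liver, which recycle iron from red cells. Of 13 Kupffer cell markers 6 rose in the limma fit, against 3.11% of all genes tested. All 13 leaned upward, and their median difference was 0.47. Their mean log2 level ran from 9.79 to 9.87 over the RD arrays and from 10.11 to 10.63 over the HFD arrays. The lead marker by p was the scavenger receptor family protein Cd5l (0.85 ± 0.12, adjusted p = 0.0066), and it alone of the 6 passed whichever array was left out. The other 5 were Timd4 (0.67 ± 0.11), C1qb (0.64 ± 0.13), Adgre1 (0.82 ± 0.17), Marco (0.89 ± 0.21) and Cd68 (0.60 ± 0.14), and the markers named were chosen after their values were seen. Dropping RD replicate 1 or 2 left 1 marker called, and dropping RD replicate 3 or HFD replicate 3 left 2, while 5 were called without HFD replicate 1 and 9 without HFD replicate 2. HFD replicate 1 had the highest value of 12 of the 13 markers. On that array Slc40a1 was at 12.03, close to its 12.06 and 12.20 on HFD replicates 2 and 3. Without that array the difference of Slc40a1 was 0.64. The part of Kupffer cells in the rise of Slc40a1 was not tested, and a pattern on 1 array does not decide it. In bulk tissue more cells of a type and more RNA per cell cannot be told apart.

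**Figure D2:**
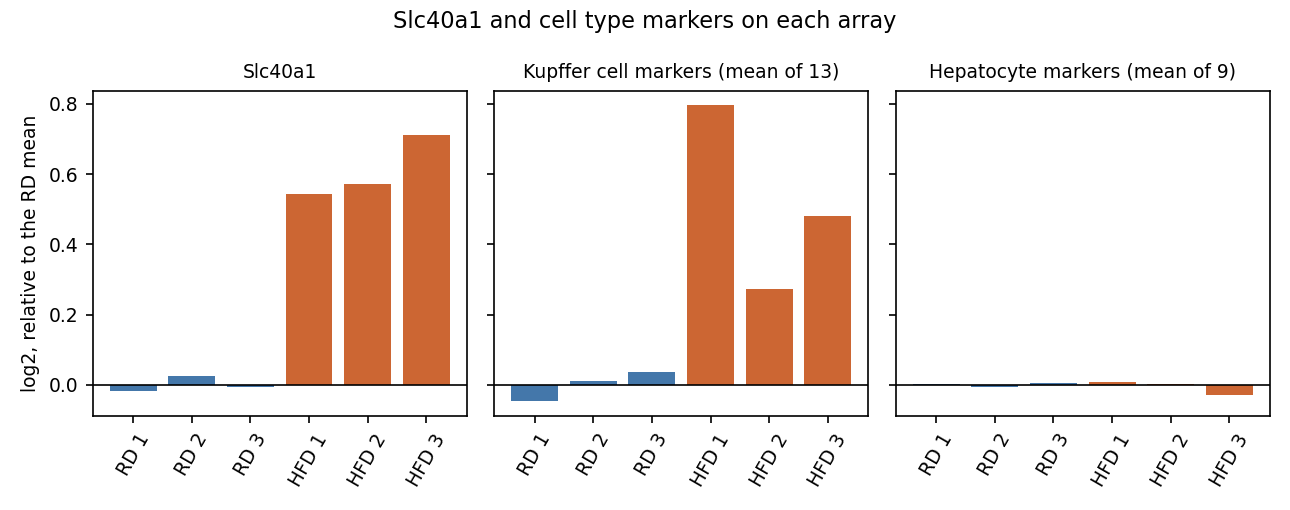
Bars give log2 levels relative to the mean of the 3 RD arrays, on each of the 6 arrays, for Slc40a1, for the mean of 13 Kupffer cell markers and for the mean of 9 hepatocyte markers. Slc40a1 is similar on the 3 HFD arrays (12.03, 12.06 and 12.20 before subtraction), the Kupffer markers are highest on HFD 1 (10.63), and the hepatocyte markers stay between 13.75 and 13.79.

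Tfrc (probe set 10435075) had log2 expression of 8.410, 7.813 and 8.009 on the RD arrays and 9.004, 8.906 and 9.127 on the HFD arrays. The RD arrays spread more widely than the HFD arrays, and the diets did not overlap. The difference of 0.94 ± 0.14 was the largest among the 10 genes, a 1.91-fold rise (95% confidence interval 1.53-fold to 2.40-fold; limma adjusted p = 0.0099). It lay between 0.80 and 1.10 when any 1 array was left out and kept its call. Tfrc is also abundant in erythroid cells. All 5 erythroid markers measured of 10 listed (the globin genes were not analysed here) had negative differences (-0.06 to -0.18). Limma called 0 of them, with 0 at an unadjusted p under 0.05. Some were dim, among them Rhag (4.43 in RD and 4.37 in HFD) and Epb42 (5.62 in RD and 5.44 in HFD). The part of erythroid cells in the rise of Tfrc was not tested.

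The other genes of iron import and its sensing did not pass. Slc11a2 (probe set 10432573), the endosomal iron transporter DMT1, had 8.99, 9.04 and 8.83 in RD and 9.32, 9.55 and 9.16 in HFD. Its HFD values all lay above its RD values, by 0.12 at the nearest, but the difference of 0.39 ± 0.11 did not pass (adjusted p = 0.085). It did pass where only the brighter genes were tested (adjusted p = 0.048), and with an array left out the adjusted p was 0.059 to 0.197. Trf (probe set 10596148), the plasma iron carrier, was at 14.35, 14.36 and 14.37 in RD and 14.42, 14.42 and 14.39 in HFD. The HFD values lay just above the RD values, 0.016 apart at the nearest, and the difference of 0.05 ± 0.06 did not pass (adjusted p = 0.72). Trf lay near the highest value of the table, 14.86, where a change in signal may be compressed. Tfr2 (probe set 10526630), the hepatocyte receptor that senses transferrin iron, was at 11.95, 11.96 and 11.92 in RD and 11.86, 11.84 and 11.85 in HFD. The values did not overlap, but the difference was only -0.09 ± 0.06 (adjusted p = 0.45).

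The ferritin heavy chain gene did not pass. Fth1 (probe set 10461402) was at 13.78, 13.84 and 13.83 in RD and 13.95, 13.95 and 13.90 in HFD. The HFD values were all higher, and the difference of 0.12 ± 0.06 did not pass (adjusted p = 0.35). Its interval reached from 0.98-fold to 1.19-fold. The light chain gene Ftl1, named after its values were seen, was at 13.98, 13.88 and 13.93 in RD and 14.16, 14.15 and 14.20 in HFD, without overlap, and its difference of 0.24 ± 0.06 did not pass either (adjusted p = 0.072). Fth1 has processed copies elsewhere in the genome that its probe set could also bind, and ferritin is set largely at translation, which arrays do not measure.

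Of the hepcidin genes only Hamp2 was called. Hamp (probe set 10562169) was at 13.37, 13.43 and 13.41 in RD and 13.59, 13.36 and 13.37 in HFD. The ranges of the diets overlapped, and only HFD replicate 1 lay above the RD arrays. HFD replicates 2 and 3 (13.363 and 13.368) lay just below the lowest RD value (13.372). The difference was 0.04 ± 0.08 (adjusted p = 0.86), with an interval from 0.90-fold to 1.16-fold, and without HFD replicate 1 it was -0.04.

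Hamp2 (probe set 10562166) was at 10.93, 11.09 and 10.58 in RD and 9.80, 10.04 and 10.16 in HFD. All HFD values lay below all RD values, by 0.42 at the nearest. Hamp2 fell by 0.87 on the log2 scale (SE 0.14, limma adjusted p = 0.013), which is 1.82-fold lower, with an interval for HFD over RD from 0.44 to 0.69. The call was lost without RD replicate 1 (log2 difference -0.84, adjusted p = 0.060) and held without each other single array.

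The difference between the genes was also read within arrays. This reading mostly restates the difference of Hamp2 (-0.87), since that of Hamp was 0.04, and is no separate support. Hamp minus Hamp2 was 2.44, 2.34 and 2.83 on the RD arrays and 3.79, 3.32 and 3.21 on the HFD arrays. Every HFD array had the larger value, and the mean was 0.90 larger, at 2.54 ± 0.26 in RD and 3.44 ± 0.31 in HFD (SD, n = 3 each). The two-sided exact permutation p was 0.1, the smallest that 3 arrays against 3 can give, so an unequal response of the genes could not pass a threshold of 0.05 (without HFD replicate 1, p was 0.2). Only its change between diets is read here, because the levels of separate probe sets are not comparable. Hamp lay nearer than Hamp2 to the highest value of the table, 14.86. A change in signal may be compressed there, and unequal compression of the genes was not tested. The genes are similar upstream of their starts, and their transcript and probe sequences were not compared here. Each probe set may bind both transcripts, so the separate values of Hamp and Hamp2 are uncertain.

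**Figure D3:**
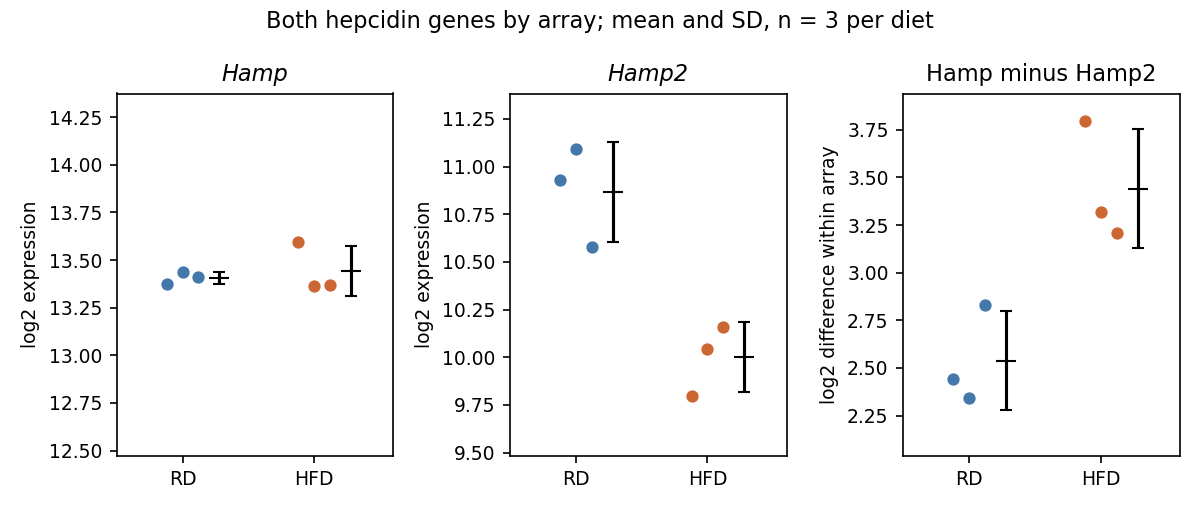
Log2 expression of Hamp and Hamp2 and the log2 difference Hamp minus Hamp2 within each array (vertical axes), for 3 RD and 3 HFD arrays, with mean and SD. Hamp overlaps between diets, Hamp2 is lower in HFD, and the within-array difference is 3.21 or more on every HFD array and 2.83 or less on every RD array.

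The ligand Bmp6 and the sensor Hfe did not pass. Bmp6 (probe set 10404686), the iron-responsive ligand, was at 8.72, 8.90 and 8.90 in RD and 8.70, 8.74 and 8.74 in HFD. RD replicate 1 lay among the HFD values, and the difference was -0.11 ± 0.07 (adjusted p = 0.46). Sinusoidal endothelial markers, of the cells that make Bmp6, gave 0 calls of 12 in limma and 0 at an unadjusted p under 0.05. Hfe (probe set 10408227), the haemochromatosis protein, was at 9.78, 9.75 and 9.81 in RD and 9.88, 9.93 and 9.94 in HFD. It did not overlap between diets, and its difference of 0.14 ± 0.06 did not pass (adjusted p = 0.27).

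**Figure D4:**
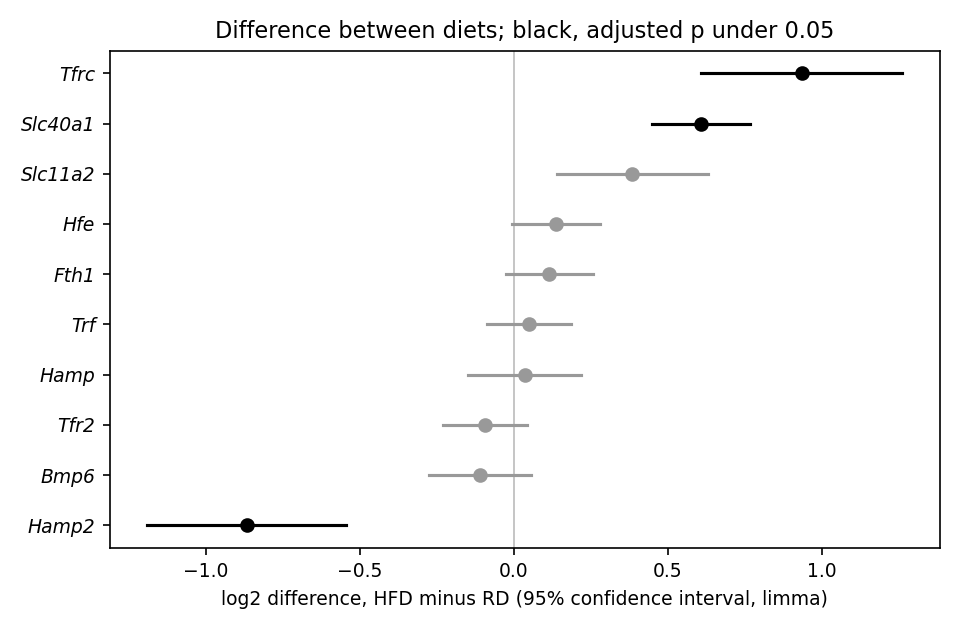
Log2 difference, HFD minus RD (horizontal axis), of each iron handling gene with its 95% confidence interval from limma; black marks an adjusted p under 0.05. Tfrc (0.94) and Slc40a1 (0.61) are higher and Hamp2 (-0.87) is lower, and the interval of Slc11a2 excludes 0 although its adjusted p is 0.085.

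Other genes of iron and haem biology were read in 8 lists, in which 105 of 111 genes were measured, 9 rose and 5 fell. Of all genes tested 3.11% rose and 2.24% fell, the shares to set beside the count of each list. In limma 3926 of all 19938 genes had an unadjusted p under 0.05. Among 25 genes of hepcidin control by BMP and SMAD, limma called 0, with 7 at an unadjusted p under 0.05 and a median of 0.01. Without HFD replicate 2, 1 rose. Those of smallest p were Tmprss6 (-0.23 ± 0.06, adjusted p = 0.087), the protease that limits hepcidin, and Hjv (-0.33 ± 0.11, adjusted p = 0.15), the BMP coreceptor hemojuvelin, and neither passed. Of 6 BMP target genes in the list, chosen after their values were seen, none passed. Id1 (0.41 ± 0.16, adjusted p = 0.20), Id3 (0.32 ± 0.14, adjusted p = 0.23), Atoh8 (0.18 ± 0.11), Id2 (0.11 ± 0.08) and Smad6 (0.09 ± 0.08) had positive differences and Smad7 a negative one (-0.27 ± 0.20, adjusted p = 0.51).

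Of 11 measured genes of hepcidin control by cytokines 2 fell and 0 rose (1 rose without HFD replicate 3), with 5 at an unadjusted p under 0.05 in limma. Among those 5, named after their values were seen, Il1b (0.65 ± 0.18, adjusted p = 0.081), Socs3 (0.47 ± 0.20, adjusted p = 0.23) and Il6 (0.29 ± 0.10, adjusted p = 0.14) were higher in HFD and did not pass. Il6 was dim, at 3.48 in RD and 3.77 in HFD. Cebpa, a liver transcription factor that activates the hepcidin promoter, was at 11.91, 11.83 and 11.72 in RD and 11.05, 11.12 and 10.79 in HFD. It fell by 0.83 on the log2 scale (SE 0.10, limma adjusted p = 0.0033) without overlap, whichever array was left out. The interleukin 6 receptor gene Il6ra fell by 0.63 (SE 0.12, adjusted p = 0.023), but did not pass once any single RD array was dropped (highest adjusted p 0.089). The list's median difference was 0.11, opposite in sign to both calls.

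In iron transport and ferrireduction 3 of 16 genes rose, against 3.11% of all genes tested, and 1 fell, against 2.24%, with a median of 0.04. Slc39a14, which imports iron not bound to transferrin into hepatocytes, was at 11.968, 11.962 and 12.002 in RD and 11.533, 11.522 and 11.365 in HFD. It fell by 0.50 (SE 0.07, limma adjusted p = 0.0071), opposite to Tfrc. Slc25a37, the mitochondrial iron importer mitoferrin 1, rose by 0.67 ± 0.10 (adjusted p = 0.0087). Both calls held whichever array was left out. The endosomal ferrireductase Steap3 rose by 0.52 ± 0.10 (adjusted p = 0.023), but did not pass once RD replicate 1 or 3 or HFD replicate 2 or 3 was dropped (highest adjusted p 0.087). Lcn2, the acute phase binder of bacterial iron carriers, rose by 1.16 ± 0.23 (adjusted p = 0.029), but of the 6 fits that each dropped an array it passed only in that lacking HFD replicate 2 (highest adjusted p 0.099). The count of risers was 1 or 2 without 1 array.

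Several genes of haem handling rose. Of 15 genes of haem uptake, export and breakdown 5 rose, against 3.11% of all genes tested, and 0 fell, with a median of 0.18 and 12 positive differences. The list's mean log2 level ran from 10.29 to 10.31 over the RD arrays and was 10.68, 10.53 and 10.57 on HFD replicates 1, 2 and 3. The Kupffer cell markers were highest on the same array (10.63, 10.11 and 10.32 on those replicates), and their part in these results was not tested. Slc48a1, which moves haem from lysosomes to the cytosol, was at 11.76, 11.89 and 11.88 in RD and 12.40, 12.43 and 12.52 in HFD. It rose by 0.61 ± 0.07 (limma adjusted p = 0.0028) without overlap. Hmox1, the haem oxygenase that frees iron from haem, rose by 1.13 ± 0.10 and Blvrb, the biliverdin reductase of the next step, by 0.71 ± 0.06 (adjusted p = 9.1e-04). These 3 passed whichever array was left out. The haem transporter family gene Flvcr2 rose by 0.59 ± 0.11 (adjusted p = 0.026), but did not pass once RD replicate 1 or 2 or HFD replicate 1 or 3 was dropped (highest adjusted p 0.095). The fifth, named after its values were seen, was the haemoglobin binder Hp (0.36 ± 0.07, adjusted p = 0.032), which among those 6 fits passed only in that lacking HFD replicate 3 (highest adjusted p 0.099). Dropping RD replicate 1 or 2 or HFD replicate 1 left 3 of the 5 calls in this list.

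In haem synthesis 1 of 9 genes rose and 1 fell, with a median of 0.08. Tmem14c, a mitochondrial carrier of haem precursors, rose by 0.40 ± 0.08 (adjusted p = 0.029), and Cpox, the coproporphyrinogen oxidase, fell by 0.38 (SE 0.08, adjusted p = 0.036). Neither passed with any single array dropped (highest adjusted p 0.105 and 0.109). In iron storage and ferritin turnover 1 of 6 fell, Scara5, a receptor for ferritin, by 0.55 (SE 0.09, adjusted p = 0.016). It did not pass once RD replicate 1 was dropped (adjusted p = 0.062), and the median of the 6 genes was -0.09. None of 9 genes of iron and oxygen sensing passed in limma (0 at an unadjusted p under 0.05, median -0.02). Ireb2, an iron regulatory protein, had -0.15 ± 0.10 (adjusted p = 0.44) and the hypoxia factor Epas1 -0.15 ± 0.09 (adjusted p = 0.45). None of 14 genes of iron-sulfur cluster assembly passed either (2 at an unadjusted p under 0.05, median -0.01), with Glrx5 (-0.31 ± 0.08, adjusted p = 0.079) and Bola3 (-0.25 ± 0.08, adjusted p = 0.11) at the smallest p.

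**Figure D5:**
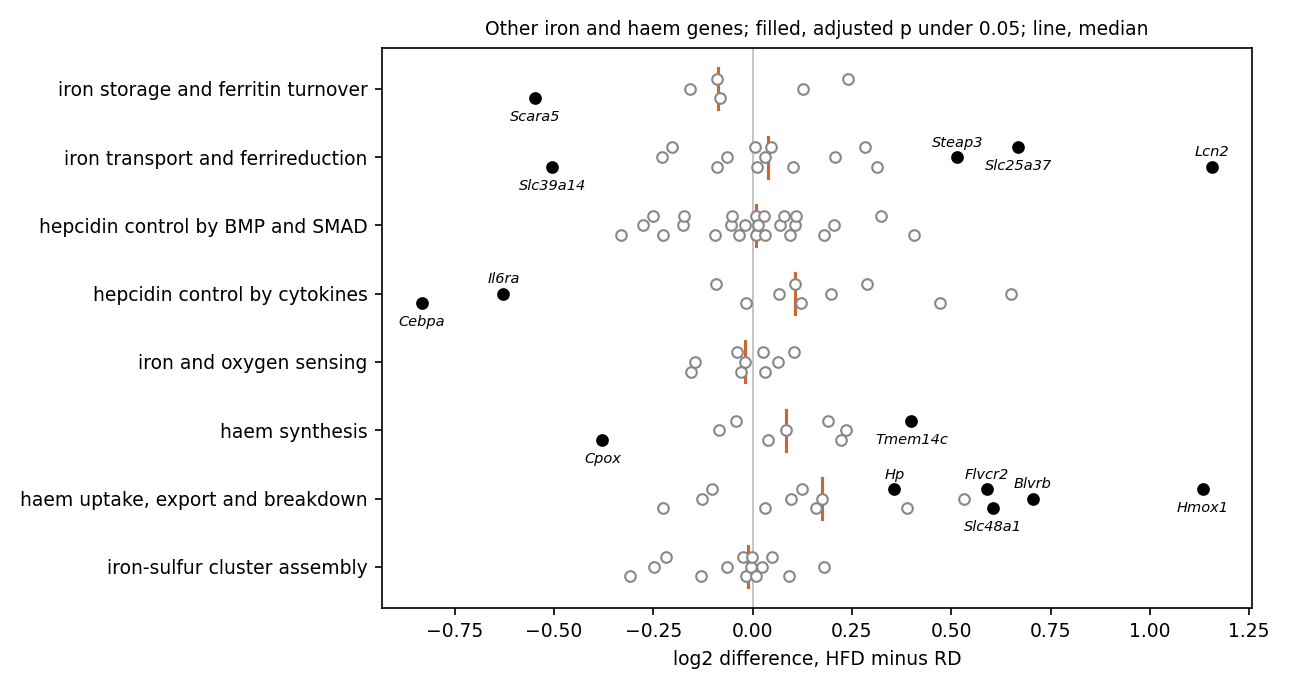
Log2 difference, HFD minus RD (horizontal axis), of 105 further iron and haem genes in 8 lists; filled points are named and have an adjusted p under 0.05, open points do not, and the vertical bars are list medians. Calls lie on both sides for transport and haem synthesis, and the 5 calls in haem uptake, export and breakdown are all higher, up to 1.13 for Hmox1.

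The genes whose 6 values, each less the RD mean, lay closest to those of a called member were found by root mean square difference in log2 units. Nearest to Slc40a1 were the haem transporter Slc48a1 (0.037), Prune1 (0.060) and Fam210a (0.061). Nearest to Tfrc were Ifitm6 (0.12), the AP-1 factor Jun (0.13) and Samd4 (0.13). Nearest to Hamp2 were the liver transcription factor Foxa3 (0.12), Mvd of the mevalonate pathway (0.12) and the transaminase Agxt (0.13). These are likenesses over 6 arrays and carry no test.

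The arrays carried the markers of liver. The mean log2 level of 9 hepatocyte markers ran from 13.78 to 13.79 in RD and from 13.75 to 13.79 in HFD, and limma called 0 of them (0 at an unadjusted p under 0.05). Several, such as Alb (14.42 in each diet), lay near the highest value of the table, 14.86, where a change in signal may be compressed. Markers of cholangiocytes rose in 5 of 5 measured, against 3.11% of all genes tested, with a median of 0.48, but 0 or 1 of them passed when 1 array was left out. Of 9 monocyte and neutrophil markers 1 rose, Cd14 (0.52 ± 0.07), likewise named after its values were seen. Limma called 0 of 9 stellate cell markers and 0 of 8 lymphocyte markers, and in each list 0 had an unadjusted p under 0.05. HFD replicate 1 stood apart for the lymphocyte markers (mean log2 level 7.05, against 6.48 to 6.67 on the other arrays) and was highest for the monocyte and neutrophil markers (6.16, against 5.84 to 5.96). Array medians lay between 7.06 and 7.11, and precision is limited by how few arrays there are. The part of these cell types in the results above was not tested.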

How the data were processed

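Total RNA of 6 liver samples was labelled with a GeneChip whole-transcript kit and measured on arrays, per the labels. The deposited values are log2 signals of 35512 probe sets on each array, from 2.28 to 14.86. The authors' summarisation and normalization of these values were not described there, and base 2 was inferred from the range. Dim values therefore have an unknown floor, and no detection filter was applied. Probe sets with 1 symbol (21789) were kept, the brightest per gene by its mean over the arrays, leaving 19938 genes. The annotation names no build, so coordinates are only those of the RefSeq promoter table. Diets were compared with limma 3.58.1 in R 4.3.3 (lmFit and eBayes, diet alone), with two-sided p-values adjusted over all genes by the Benjamini-Hochberg method and called under 0.05. The members, gene lists and tests were chosen with earlier results of these data known. All members are named, and from each of the 8 iron lists up to 4 passing genes by smallest p, or 2 that did not pass. Alternatives were normalization, centring, a brightness filter, averaged probe sets, variance priors, array weights, a block, an unmoderated model and leaving out each array. The limma comparison was tested on simulated data, and the other steps were not. No value column was left out.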

Additional observations from a re-analysis of the deposited data

How the results depend on the processing

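Slc40a1, Tfrc and Hamp2 kept their direction under all 14 alternatives and lost their calls together in 1 of them, the unmoderated linear model (adjusted p = 0.054, 0.14 and 0.15), which called 0 iron handling genes in either direction and 41 higher and 58 lower genes in all, against 621 and 446. With 1 array left out, 197 to 371 genes were higher and 178 to 273 lower, 2 iron handling genes stayed higher, and 0 or 1 was lower (0 without RD replicate 1). Hamp lay between -0.041 (without HFD replicate 1, a change of sign) and 0.074 (without HFD replicate 2) and was never called. Hamp minus Hamp2 shifted by 0.73 to 1.05 with 1 array left out, where the exact permutation p was 0.1 or 0.2. The replicate block gave 318 higher and 245 lower genes and kept the same 3 calls. In it Scara5, Lcn2, Il6ra, Cpox, Tmem14c and Hp did not pass (adjusted p 0.051 to 0.076). The other calls in the iron and haem lists held. Of the called Kupffer cell markers, Adgre1, Cd68 and C1qb did not pass with the block, and Timd4, Marco and Cd5l did. Of the cholangiocyte markers only Epcam passed. Deviations of arrays with the same number correlated at -0.11, 7.2e-05 and 0.12. No pairing by number was seen, though so few arrays cannot exclude it. Slc11a2 passed only among the brighter genes. Other scalings moved no call of the 10 genes. Trf, Fth1 and Hamp lie near the top of the signal range, which limits what could be seen there. What the arrays' background hides could not be read without detection calls.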
